A study of Mus musculus with 12 samples.

Results

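Podocytes are the epithelial cells that wrap the capillaries of the glomerulus, the filtering unit of the kidney. Their interlocking foot processes are bridged by the slit diaphragm, a cell junction built around nephrin, and the shape of the processes is held by an actin cytoskeleton. A small group of transcription factors keeps podocytes in their differentiated state, and loss of slit diaphragm or cytoskeletal proteins is a known route to proteinuria. A set of 8 such genes, of 18194 genes that could be analysed, was examined here in glomeruli exposed to TNF: *Nphs1* and *Cd2ap* of the slit diaphragm, *Podxl* and *Ptpro* of the apical surface, *Synpo* and *Actn4* of the actin cytoskeleton, and the transcription factors *Wt1* and *Tcf21*. They were chosen by name as podocyte slit diaphragm and identity genes, and all 8 were measured, by 14 of the 45101 probe sets of the array. Where a gene had several probe sets, the one with the highest mean over all arrays, called its lead probe set, represented the gene.

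The 12 arrays came from glomeruli of *Tnfr1,2*-/-, *Tnfr1*-/-, *Tnfr2*-/- and wildtype male mice aged 6 to 8 weeks, with 3 arrays each. Mutants carried targeted deletions, B6.129-*Tnfrsf1a* tm1Mak for TNF receptor 1 (TNFR1) and B6.129-*Tnfrsf1b* tm1Mwm for TNF receptor 2 (TNFR2). The double mutant carried both, and the wildtype was C57BL/6J. Whether sequence around the deletions otherwise matched the wildtype is not stated. *Podxl* and *Ptpro* lie on chromosome 6, as does *Tnfrsf1a*. The part of such sequence in the values of *Podxl* and *Ptpro* was not tested. The deletions were present in every cell of the animal, so that no result can be given to podocytes alone. All glomeruli, 5000 per preparation, had been isolated with magnetic beads, serum starved and then exposed for 12 hours to murine TNF at 50 ng/ml, wildtype included, so that the arrays compare genotypes under TNF and not TNF with medium. Isolated glomeruli lack Bowman's capsule but hold podocytes, endothelial cells and mesangial cells together. A difference in a podocyte transcript can therefore be fewer podocytes or less transcript per podocyte, which cannot be told apart.

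The targeted genes followed their labels, with 1 array near the limit. *Tnfrsf1a* read 9.11 to 9.61 in *Tnfr1,2*-/- glomeruli and 9.24 to 10.18 in *Tnfr1*-/- glomeruli, against 10.23 to 10.73 in wildtype glomeruli (log2 values), so that the probe set still detected transcript in both mutants. The value of 10.18 belonged to *Tnfr1*-/- replicate 2, which also stood apart for podocyte genes. *Tnfrsf1b* read 5.37 to 5.57 in *Tnfr1,2*-/- glomeruli and 4.95 to 5.66 in *Tnfr2*-/- glomeruli, against 7.41 to 7.77 in wildtype glomeruli. The beta-actin control has probe sets near either end of its transcript, and the gap between them, a measure of how evenly transcripts were covered, split the 12 arrays into 2 sets: 0.67 to 1.005 log2 units on 7 arrays (set 1) and 1.82 to 2.30 on 5 arrays (set 2). Each genotype was present in both sets. Set 2 held *Tnfr1,2*-/- replicates 2 and 3, *Tnfr1*-/- replicate 3, *Tnfr2*-/- replicate 3 and wildtype replicate 3.

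Across the 12 arrays *Ptpro* varied closely with *Cd2ap* (Pearson r = 0.85) and with *Tcf21* (0.84). *Cd2ap* and *Tcf21* varied together less closely (0.66, and 0.38 without *Tnfr1*-/- replicate 2). For *Actn4* r with these genes was -0.40 to 0.02. Promoter sequences of these 4 genes are shown. Each runs from 250 bases before to 50 bases after the transcription start in the RefSeq annotation of GRCm38.p6, and lies at chr6:137252049-137252348 on the plus strand for *Ptpro*, chr17:42876375-42876674 on the minus strand for *Cd2ap*, chr10:22820094-22820393 on the minus strand for *Tcf21* and chr7:28962283-28962582 on the minus strand for *Actn4*. Capitals mark the E-box CANNTG, the letters recognised by basic helix-loop-helix factors, the class to which Tcf21 belongs, and the WT1 site GCGTGGGNG, both searched on either strand.
Ptpro: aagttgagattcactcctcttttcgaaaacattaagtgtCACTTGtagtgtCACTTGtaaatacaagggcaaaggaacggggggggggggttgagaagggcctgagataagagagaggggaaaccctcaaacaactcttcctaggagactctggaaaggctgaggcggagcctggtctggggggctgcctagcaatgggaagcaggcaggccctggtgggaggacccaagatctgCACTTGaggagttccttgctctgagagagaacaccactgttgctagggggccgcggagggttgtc
Cd2ap: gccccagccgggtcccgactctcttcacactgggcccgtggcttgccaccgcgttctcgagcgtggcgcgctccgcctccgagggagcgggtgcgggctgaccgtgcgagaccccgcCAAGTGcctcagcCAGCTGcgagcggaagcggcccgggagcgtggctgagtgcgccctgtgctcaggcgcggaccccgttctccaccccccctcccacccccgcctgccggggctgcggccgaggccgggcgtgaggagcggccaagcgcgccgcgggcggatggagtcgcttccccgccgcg
Tcf21: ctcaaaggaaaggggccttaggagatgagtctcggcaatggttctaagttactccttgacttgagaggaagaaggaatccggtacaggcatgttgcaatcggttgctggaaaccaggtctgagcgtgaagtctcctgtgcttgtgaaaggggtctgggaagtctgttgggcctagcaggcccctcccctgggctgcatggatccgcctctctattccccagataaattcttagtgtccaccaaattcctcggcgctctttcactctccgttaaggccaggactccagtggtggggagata
Actn4: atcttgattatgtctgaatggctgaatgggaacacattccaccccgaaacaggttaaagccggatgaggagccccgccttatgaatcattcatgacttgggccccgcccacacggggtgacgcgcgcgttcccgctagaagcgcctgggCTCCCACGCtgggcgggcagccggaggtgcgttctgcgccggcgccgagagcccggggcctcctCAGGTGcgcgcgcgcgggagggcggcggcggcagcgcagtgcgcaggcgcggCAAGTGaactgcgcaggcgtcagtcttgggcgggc
The *Ptpro* window held 3 E-boxes, that of *Cd2ap* 2, that of *Actn4* 2 and that of *Tcf21* 0. The *Actn4* window also held a WT1 site, on its opposite strand, which did not overlap an E-box. The *Nphs1* window, not shown, held 0 E-boxes and 0 WT1 sites. Of 32851 mouse promoters of the same length, 72.3% held an E-box, 17.6% held at least 3, and 1.90% held the WT1 site. These matches describe letters and not bound sites.

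No member was called in any genotype comparison of the main model, which used no block. Calls required both a limma p under 0.05 after Benjamini-Hochberg adjustment over all 18194 genes and a change of 1.5-fold or more. For *Tnfr1,2*-/- against wildtype 0 of 8 members were called, where 1.3% of all genes were, for *Tnfr1*-/- against wildtype 0 of 8 beside 1.2%, and for *Tnfr2*-/- against wildtype 0 of 8 beside 0%. For the loss of Tnfr1, the mean of the 6 *Tnfr1,2*-/- and *Tnfr1*-/- arrays minus that of the 6 *Tnfr2*-/- and wildtype arrays, 0 of 8 were called beside 2.52% of all genes. For the loss of Tnfr2, built in the same way, 0 of 8 were called beside 0.0275%, and for the interaction of both losses 0 of 8 beside 0%. SAM, the test of the study's methods, also called 0 of the 8 in each comparison with wildtype. At an unadjusted p under 0.05, 1 member, *Synpo*, passed in *Tnfr1,2*-/- and in *Tnfr1*-/- glomeruli and for the loss of Tnfr1, beside 8.44%, 6.35% and 11% of all genes, and 0 members passed in *Tnfr2*-/- glomeruli (0.704% of all genes), for the loss of Tnfr2 (0.967%) and for the interaction (1.35%). Signs leaned towards higher values in *Tnfr1,2*-/- glomeruli: 7 of 8 members were higher in sign in *Tnfr1,2*-/- glomeruli than in wildtype, beside 49.7% of all genes, with a median change of 0.43 on the log2 scale against -0.001 for all genes. Markers of other cells leaned too in this comparison: the median was 0.73 for parietal epithelial markers (7 of 10 higher in sign, the keratin gene *Krt19* called), 0.23 for mesangial markers (11 of 13) and 0.22 for endothelial markers (12 of 20), and -0.25 for macrophage markers (4 of 14). Their part in the podocyte values was not tested.

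**Figure D1:**
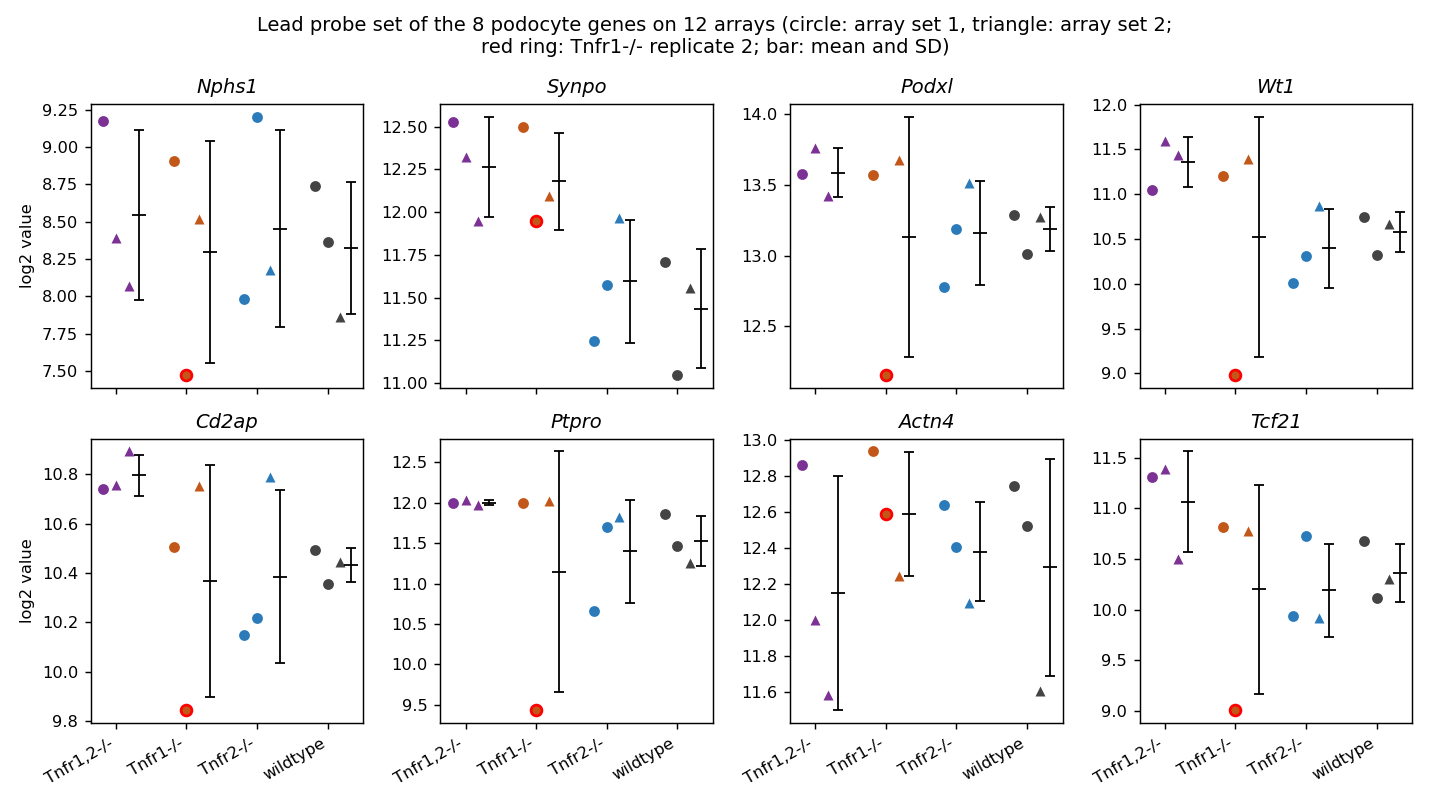
Log2 value of the lead probe set (vertical axis) on each of the 12 arrays for the 8 podocyte genes, by genotype (horizontal axis, 3 arrays each); circles stand for set 1, triangles for set 2, bars the mean and SD, and the red ring marks Tnfr1-/- replicate 2. That array is the lowest of the 12 in 6 of the 8 panels, with Wt1 at 8.98 and Ptpro at 9.43.

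*Synpo*, which encodes the actin-associated protein synaptopodin, had the smallest p of the 8 genes for the loss of Tnfr1. It read 12.53, 12.32 and 11.95 on the *Tnfr1,2*-/- arrays and 12.50, 11.95 and 12.09 on the *Tnfr1*-/- arrays, against 11.71, 11.05 and 11.55 on the wildtype arrays. Every array of either mutant lay above every wildtype array. *Tnfr2*-/- glomeruli lay lower than both other mutants on average, at 11.24, 11.58 and 11.97, and overlapped the wildtype. Against wildtype the change was 0.83 ± 0.24 (log2, SE) in *Tnfr1,2*-/- glomeruli (limma adjusted p = 0.218) and 0.74 ± 0.24 in *Tnfr1*-/- glomeruli (adjusted p = 0.328). The loss of Tnfr1 gave 0.71 ± 0.17, or 1.63-fold, with a 95% interval of 0.33 to 1.08 and an adjusted p of 0.0561 (unadjusted 0.00165), just short of the threshold. Its call depended on the analysis. *Synpo* was called when the array set was added as a block (0.70, adjusted p = 0.0326, 3.58% of all genes called) or arrays were weighted by quality (0.86, adjusted p = 0.00871, 3.93% of all genes called), and under those weights also in *Tnfr1,2*-/- against wildtype (0.93, adjusted p = 0.0277, 5.72% of all genes called). A mean-variance trend, cyclic loess, the loss of dim genes and a replicate block also gave a call (adjusted p from 0.0256 to 0.0473). Leaving out each array in turn gave 0.61 to 0.80 with adjusted p-values from 0.0372 to 0.142. Within set 1 the 3 arrays without Tnfr1 (11.95 to 12.53) lay above the 4 with it (11.05 to 11.71), and within set 2 the 3 without it (11.95 to 12.32) overlapped the 2 with it (11.55 to 11.97). The loss of Tnfr2 changed *Synpo* by 0.12 (95% interval -0.26 to 0.50), and the interaction of both losses was -0.07 ± 0.34. The second *Synpo* probe set was dim, at 4.63 to 5.79 on all arrays, and its change with the loss of Tnfr1 was 0.22 ± 0.20.

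*Actn4*, the gene of the actin crosslinker alpha-actinin-4, did not share this pattern. It read 12.86, 12.00 and 11.58 in *Tnfr1,2*-/- glomeruli, 12.93, 12.58 and 12.24 in *Tnfr1*-/- glomeruli and 12.64, 12.40 and 12.09 in *Tnfr2*-/- glomeruli, against 12.75, 12.52 and 11.61 in wildtype glomeruli. The values followed the array set rather than the genotype, with 12.40 to 12.93 on the 7 arrays of set 1 and 11.58 to 12.24 on the 5 arrays of set 2, without overlap. Its change with the loss of Tnfr1 was 0.03 (95% interval -0.52 to 0.58). *Actn4* is expressed in many cell types, and its lead probe set was the one of the 8 that *Tnfr1*-/- replicate 2 left nearly unchanged, at 12.58, where it differed from the mean of the other *Tnfr1*-/- arrays by -0.004.

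The slit diaphragm genes were *Nphs1*, which encodes nephrin, and *Cd2ap*, which encodes an adaptor that ties nephrin to the cytoskeleton. *Nphs1* read 9.17, 8.39 and 8.07 in *Tnfr1,2*-/- glomeruli, 8.91, 7.47 and 8.52 in *Tnfr1*-/- glomeruli and 7.98, 9.20 and 8.18 in *Tnfr2*-/- glomeruli, against 8.74, 8.37 and 7.86 in wildtype glomeruli. All 4 genotypes overlapped. No comparison with wildtype moved *Nphs1* by more than 0.22 (*Tnfr1,2*-/- against wildtype, 95% interval -0.73 to 1.17), an interval that is wide in both directions. *Cd2ap* was tighter. It read 10.74, 10.76 and 10.89 in *Tnfr1,2*-/- glomeruli, all above the wildtype values of 10.49, 10.36 and 10.44, a change of 0.37 ± 0.23 (adjusted p = 0.726). The *Tnfr1*-/- values of 10.50, 9.84 and 10.75 and the *Tnfr2*-/- values of 10.15, 10.22 and 10.79 lay on both sides of the wildtype. The other pair of *Cd2ap* probe sets changed by 0.20 and 0.30 in *Tnfr1,2*-/- glomeruli. They were lower in *Tnfr1*-/- glomeruli (-0.37 and -0.31, lead -0.06) and in *Tnfr2*-/- glomeruli (-0.45 and -0.42, lead -0.05), and none of these changes was called. For the first of the pair, the *Tnfr2*-/- values of 6.86 to 7.19 lay below the wildtype values of 7.29 to 7.64.

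The apical surface genes were *Podxl*, which encodes the sialylated surface protein podocalyxin, and *Ptpro*, which encodes the receptor tyrosine phosphatase GLEPP1. *Podxl* read 13.58, 13.76 and 13.42 in *Tnfr1,2*-/- glomeruli, 13.57, 12.15 and 13.68 in *Tnfr1*-/- glomeruli and 12.78, 13.19 and 13.51 in *Tnfr2*-/- glomeruli, against 13.29, 13.01 and 13.27 in wildtype glomeruli. *Tnfr1,2*-/- arrays lay above all wildtype arrays, with a change of 0.40 ± 0.34 (adjusted p = 0.808), and the *Tnfr1*-/- mean lay below wildtype only with replicate 2 included. *Ptpro* was nearly constant in *Tnfr1,2*-/- glomeruli, at 11.99, 12.04 and 11.98, against 11.86, 11.47 and 11.26 in wildtype glomeruli. *Tnfr1*-/- glomeruli gave 12.00, 9.43 and 12.02, and *Tnfr2*-/- glomeruli 10.66, 11.70 and 11.82. The *Ptpro* change in *Tnfr1,2*-/- glomeruli was 0.47 ± 0.58 (adjusted p = 0.858).

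The transcription factor genes were *Wt1*, which is required for podocyte differentiation and marks podocyte nuclei in the adult glomerulus, and *Tcf21*, which is needed for glomerular development. *Wt1* read 11.05, 11.59 and 11.44 in *Tnfr1,2*-/- glomeruli, 11.20, 8.98 and 11.39 in *Tnfr1*-/- glomeruli and 10.01, 10.31 and 10.87 in *Tnfr2*-/- glomeruli, against 10.74, 10.32 and 10.66 in wildtype glomeruli. The other 5 arrays without Tnfr1 were higher than all 6 arrays with it, and *Tnfr1*-/- replicate 2 was the lowest of the 12. Over all arrays the loss of Tnfr1 therefore gave 0.46 ± 0.36 (95% interval -0.34 to 1.25, adjusted p = 0.769). *Tcf21* read 11.31, 11.39 and 10.50 in *Tnfr1,2*-/- glomeruli, 10.81, 9.01 and 10.78 in *Tnfr1*-/- glomeruli and 9.94, 10.72 and 9.91 in *Tnfr2*-/- glomeruli, against 10.67, 10.11 and 10.30 in wildtype glomeruli. The *Tnfr1,2*-/- change was 0.70 ± 0.45 (adjusted p = 0.734), with 1 of 3 arrays inside the wildtype range.

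In *Tnfr1,2*-/- glomeruli the lead probe sets of 5 of 8 members, *Synpo*, *Podxl*, *Wt1*, *Cd2ap* and *Ptpro*, were higher without overlap with the wildtype arrays, beside 6.61% of all genes. This did not extend to the other probe sets of *Synpo*, *Podxl*, *Cd2ap* and *Ptpro*, all of which overlapped the wildtype arrays. *Wt1* had 1 probe set. Set 2 held 2 of the 3 *Tnfr1,2*-/- arrays and 1 of the 3 wildtype arrays, and with the array set as a block the changes were 0.57 for *Wt1* (0.78 without the block), 0.27 for *Podxl* (0.40), 0.26 for *Cd2ap* (0.37), 0.34 for *Ptpro* (0.47) and 0.81 for *Synpo* (0.83). In *Tnfr1*-/- glomeruli only the lead probe set of *Synpo* was higher without overlap with the wildtype arrays, beside 5.5% of all genes. The order of genotypes by the mean of the 8 lead probe sets was *Tnfr1,2*-/- (11.47 ± 0.22, SD, n = 3), *Tnfr1*-/- (11.06 ± 0.76), wildtype (11.02 ± 0.23) and *Tnfr2*-/- (10.99 ± 0.28). The last 3 means lay closer together than the SD of any of them. These comparisons share the wildtype arrays and are not independent of each other.

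*Tnfr1*-/- replicate 2 averaged 10.18 over the 8 members, against 11.23 to 11.65 on the 3 *Tnfr1,2*-/- arrays and 11.43 and 11.55 on the other *Tnfr1*-/- arrays. The array was the lowest of all 12 for *Nphs1*, *Podxl*, *Wt1*, *Cd2ap*, *Ptpro* and *Tcf21*. Its log2 difference from the mean of the other *Tnfr1*-/- arrays was -2.58 for *Ptpro*, -2.32 for *Wt1*, -1.79 for *Tcf21*, -1.47 for *Podxl*, -1.24 for *Nphs1*, -0.78 for *Cd2ap* and -0.35 for *Synpo*. Many other podocyte genes were low there too, but not all. Of 73 measured genes in 4 further podocyte lists, 36 (49.3%) were lowest of the 12 arrays there, beside 16.2% of all genes, 52 were lower than the mean of the other *Tnfr1*-/- arrays, and 7 were highest of the 12. The podocyte transcription factor list was divided, with 6 of 13 genes lowest there, 4 highest and a median difference of -0.07 from the other *Tnfr1*-/- arrays. The most negative differences of the 73 genes were those of *Col4a4* and *Plce1*. *Col4a4*, a chain of the glomerular basement membrane collagen, read 9.11 on that array against 11.67 and 12.03 on the other *Tnfr1*-/- arrays, and *Plce1*, a phospholipase needed for glomerular filtration, read 8.07 against 10.79 and 10.78.

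Endothelial and macrophage markers were high on the same array, and parietal epithelial markers were low. Of 20 endothelial markers, 14 (70%) were highest of the 12 arrays there, beside 12.3% of all genes, and their mean was 9.73, against 9.53 and 8.97 on the other *Tnfr1*-/- arrays and 8.50 to 9.03 on the wildtype arrays. Endoglin (*Eng*) read 12.18 there against 11.29 and 9.70 on the other *Tnfr1*-/- arrays. Of 14 macrophage markers, 6 (42.9%) were highest there, with a mean of 8.43 against 7.77 and 7.25 on the other *Tnfr1*-/- arrays. *Tnfr2*-/- replicate 2 had almost the same macrophage mean, 8.42, and a mean of 11.17 over the 8 podocyte genes, against 10.67 and 11.14 on the other *Tnfr2*-/- arrays. Of 10 parietal epithelial markers, 9 were lower than the mean of the other *Tnfr1*-/- arrays (median difference -0.70) and 3 were lowest of the 12. Mesangial markers were divided, with 4 of 13 highest, 3 lowest and a median difference of 0.09. Of the other lists, 1 of 16 tubular, 0 of 9 neutrophil and 2 of 10 lymphocyte markers were highest there, and 3, 1 and 1 were lowest. The 3' to 5' measure placed it in set 1, and housekeeping genes deviated from their 12-array mean by 0.08 on it. The part of other cells in the low podocyte signal was not tested.

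**Figure D2:**
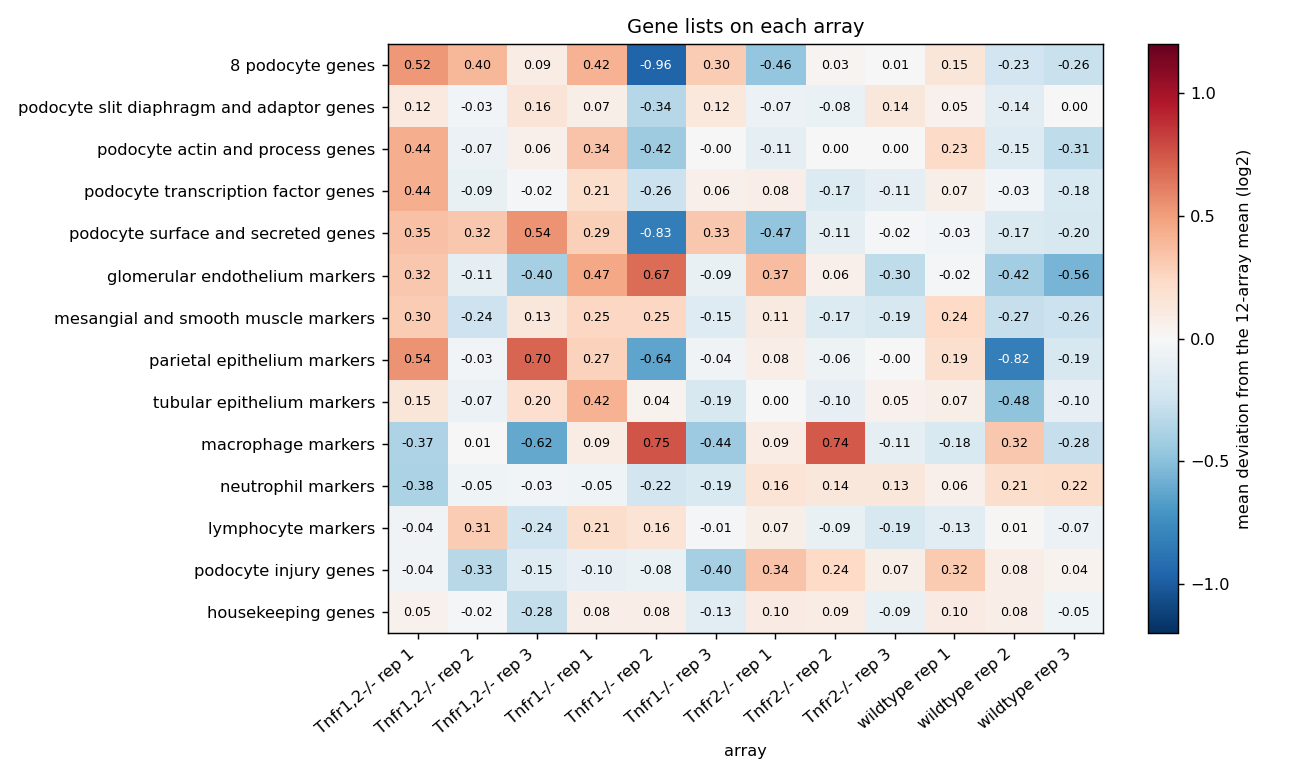
Mean deviation of each gene list (rows) from its own mean over the 12 arrays (log2, colour and printed value) on each array (columns). Tnfr1-/- replicate 2 stands at -0.96 for the 8 podocyte genes and -0.83 for podocyte surface and secreted genes, and at 0.67 for endothelial and 0.75 for macrophage markers.

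Leaving that array out, an alternative in which each array was left out in turn, changed several readings. All 8 members were then higher in sign in *Tnfr1*-/- glomeruli than in wildtype, with a median of 0.43, where 2 of 8 were with all arrays included (median -0.05, 48.9% of all genes higher). In the same 11 arrays 20 of 20 endothelial markers were higher in *Tnfr1*-/- glomeruli, with a median of 0.52, as they were with all arrays (median 0.70), and 7 of 10 parietal epithelial markers were (median 0.50). Their part was not tested. *Wt1* was called for the loss of Tnfr1, at 0.84 ± 0.17 or 1.79-fold (95% interval 0.46 to 1.23, adjusted p = 0.0258), beside 2.65% of all genes. Leaving out any of the other 11 arrays gave *Wt1* changes of 0.24 to 0.58 and no call. *Synpo* stayed just short of the threshold (0.76, adjusted p = 0.0585). *Tcf21* gave 0.65 ± 0.21 (adjusted p = 0.198), *Ptpro* 0.54 ± 0.21 (adjusted p = 0.307) and *Podxl* 0.43 ± 0.14 (adjusted p = 0.204). Both *Wt1* (11.05 to 11.59 on 5 arrays without Tnfr1, against 10.01 to 10.87 on 6 with it) and *Ptpro* (11.98 to 12.04, against 10.66 to 11.86) separated completely in this subset, beside 2.02% of all genes. For *Ptpro* this held for the lead probe set only. Its second probe set read 7.9 to 10.9 on the arrays without Tnfr1 and 8.3 to 10.5 on those with it, which overlap. The array was singled out after its podocyte values were seen, so these are values of the remaining 11 arrays and not a second test. With the array set as a block in addition, an alternative added after seeing the data, *Wt1* (0.75, adjusted p = 0.00389) and *Synpo* (0.76, adjusted p = 0.0295) were both called, beside 3.96% of all genes.

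**Figure D3:**
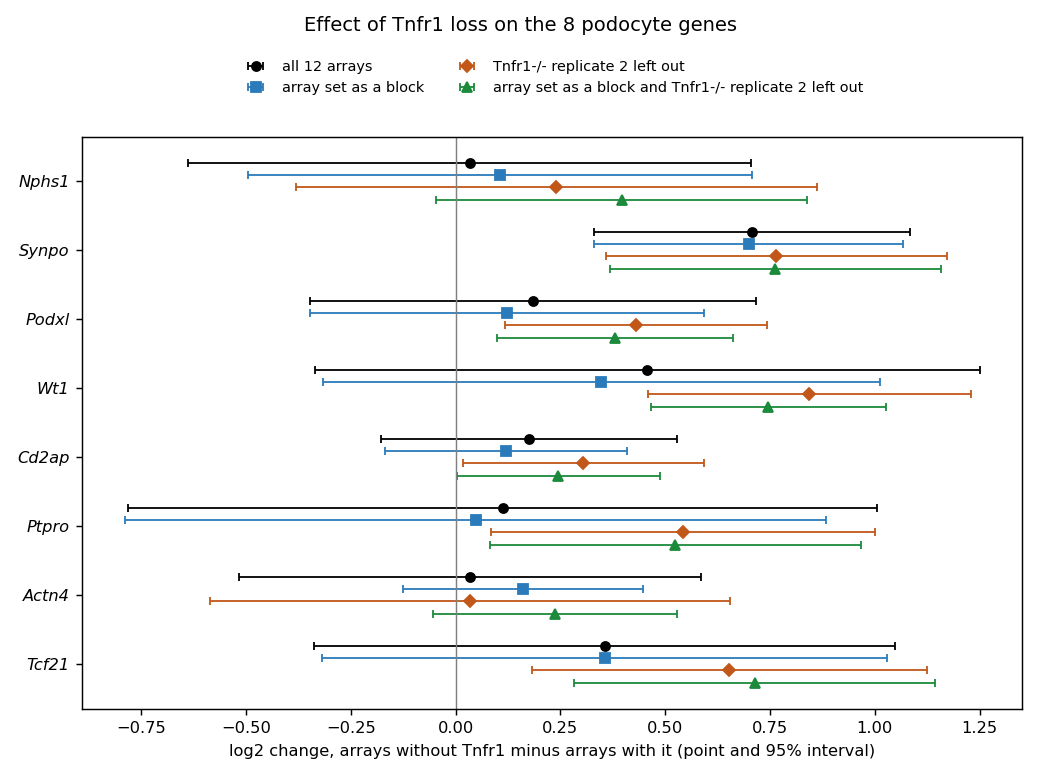
Change of the 8 podocyte genes with the loss of Tnfr1 (log2, arrays without Tnfr1 minus arrays with it; point and 95% interval) under 4 settings. Synpo lies at 0.70 to 0.76 in all 4, while Wt1 lies at 0.46 with all 12 arrays and at 0.84 without Tnfr1-/- replicate 2.

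The array set touched the members unequally. *Wt1* averaged 10.37 on set 1 and 11.19 on set 2, whereas *Actn4* averaged 12.67 on set 1 and 11.90 on set 2. The sets differ in genotype, with 3 of 7 arrays without Tnfr1 in set 1 and 3 of 5 in set 2. Set 1 also held *Tnfr1*-/- replicate 2, where *Wt1* read 8.98. On the arrays with Tnfr1 alone *Wt1* averaged 10.34 on set 1 and 10.77 on set 2, and *Actn4* 12.58 and 11.85. For 2 of the 5 genes with more than 1 probe set, *Podxl* and *Ptpro*, the sets also separated within the gene. For *Podxl* the lead probe set exceeded the other by 4.54 ± 0.30 on set 1 and by 6.03 ± 0.16 on set 2 (SD, n = 7 and n = 5), and the sets did not overlap. For *Ptpro* the gap was 1.64 ± 0.41 on set 1 and 3.17 ± 0.54 on set 2. The sets overlapped for *Synpo* (6.02 to 6.93 on set 1, 6.80 to 7.41 on set 2), for both *Cd2ap* pairs and for *Tcf21*, whose gap was smaller on set 2 (5.35 on set 1, 4.92 on set 2). Signs of some contrasts differed between probe sets of 1 gene. The second *Ptpro* probe set changed by -0.15 in *Tnfr1,2*-/- glomeruli, where the lead probe set changed by 0.47. With the loss of Tnfr1 the lead and second probe sets gave 0.11 and -0.26 for *Ptpro* and 0.18 and -0.05 for *Podxl*. With the loss of Tnfr2 they gave 0.12 and -0.09 for *Synpo*. In *Tnfr1,2*-/- glomeruli the second *Podxl* probe set changed by 0.02, against 0.40 for the lead. The second *Tcf21* probe set, dim at 5.02 on set 1 and 5.66 on set 2 on average, changed by 0.59 ± 0.28 there, close to its lead.

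**Figure D4:**
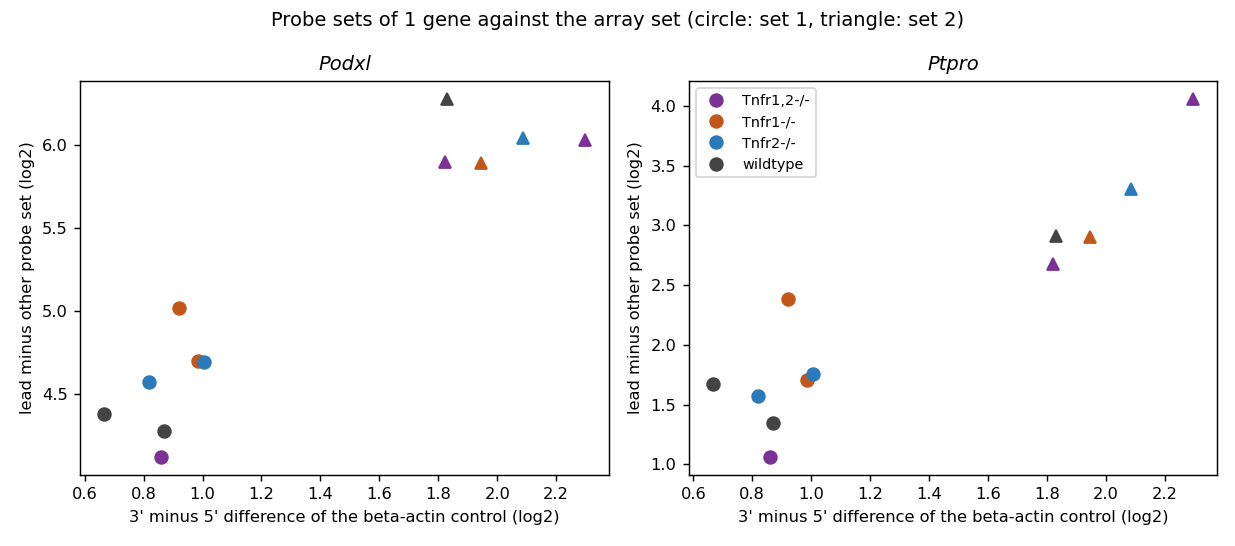
Difference between the lead and the other probe set of Podxl (left) and Ptpro (right), in log2 units on the vertical axis, against the gap between the 3' and 5' beta-actin controls (log2, horizontal axis) on each of the 12 arrays; colour gives the genotype, circles set 1 and triangles set 2. The 5 arrays of set 2 lie above the 7 of set 1 for both genes.

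Across the 12 arrays *Podxl*, *Wt1*, *Cd2ap*, *Ptpro* and *Tcf21* varied most closely together. Of 28 pairs of members, 9 had a Pearson r over 0.8, all among these 5 genes, the highest being *Podxl* with *Wt1* (0.96). Without *Tnfr1*-/- replicate 2 there were 7 such pairs, of which *Synpo* with *Podxl* (0.89) and *Synpo* with *Wt1* (0.81) were 2. *Tcf21* was then in no such pair, its highest r being 0.74 with *Synpo*. *Nphs1* had an r of 0.32 with *Cd2ap* (-0.07 without *Tnfr1*-/- replicate 2) and 0.45 with *Wt1* (0.07 without it). It was closer to *Tcf21* (0.76, and 0.63 without that array). The 4 pairs with a negative r all included *Actn4*. Among 9162 genes with a mean log2 value of at least 7, those whose pattern was most like the mean of the 8 members were *Arhgef16* (r = 0.98), *Mrgprf* (0.97), *Rab3b* (0.96), *Tmod3* (0.96), *Tmem150c* (0.95), *Tspan15* (0.95), *Top1mt* (0.95), *Nck2* (0.95), *Arhgef18* (0.95) and *Tesk2* (0.95). Of these, *Nck2* encodes an adaptor that binds nephrin and *Tmod3* caps actin filaments. *Arhgef16* followed the members down to 7.87 on *Tnfr1*-/- replicate 2, against 8.66 to 10.36 on the other arrays, and its r without that array was 0.97. The points share the 12 arrays and their array sets, so the coefficients are descriptions.

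Other podocyte genes gave few calls. In the slit diaphragm and adaptor list (16 of 20 genes measured here) *Trpc6*, a cation channel at the slit diaphragm, was lower with the loss of Tnfr1 (log2 change -1.03, limma adjusted p = 0.0128, beside 1.59% of all genes called lower), the single call of the 4 lists in that comparison. *Trpc6* read 4.73, 4.27 and 5.02 in *Tnfr1,2*-/- glomeruli, 4.65, 4.28 and 5.0 in *Tnfr1*-/- glomeruli and 5.83, 5.33 and 6.02 in *Tnfr2*-/- glomeruli, against 5.76, 5.21 and 5.99 in wildtype glomeruli. The 6 arrays without Tnfr1 lay below the 6 with it, on values that are dim for this platform. The adaptor *Nck1* had a change of -0.64 and was not called (adjusted p = 0.0783), and was called lower with the array set as a block (-0.72, adjusted p = 0.0016). In the actin and process list (18 of 20) 0 genes were called and the median change with the loss of Tnfr1 was 0.08. In the transcription factor list (13 of 14) 0 were called and the median was 0.11, with *Dach1* at 0.66 (adjusted p = 0.449).

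The surface and secreted list (26 of 28 genes measured) was mostly higher in sign. It also held genes of neither kind, such as *Tdrd5* and *Cdkn1c*. In *Tnfr1,2*-/- glomeruli 24 of 26 genes were higher in sign than in wildtype, with a median of 0.50, and 8 passed an unadjusted p under 0.05, beside 4.8% of all genes that were higher. None of the 26 was called. The list was chosen with earlier results of these data known. It holds *Mertk*, *Gas1* and *Tdrd5*, which the study itself reported as higher in *Tnfr1,2*-/- glomeruli on these arrays. The counts were thus partly set by the choice of genes and are no second test. *Sema3g*, a secreted semaphorin, averaged 12.12 ± 0.38 in *Tnfr1,2*-/- glomeruli against 10.96 ± 0.26 in wildtype glomeruli (adjusted p = 0.342). *Mertk*, a receptor for dying cells, averaged 11.59 ± 0.08 against 10.31 ± 0.23 (adjusted p = 0.352), and *Efnb2*, the guidance ligand ephrin-B2, 11.18 ± 0.46 against 10.31 ± 0.41 (adjusted p = 0.259). With the array set as a block *Efnb2* was called higher for the loss of Tnfr1 (0.63, adjusted p = 0.00624) and in *Tnfr1*-/- against wildtype (0.71, adjusted p = 0.0383). *Efnb2* was not low on *Tnfr1*-/- replicate 2, at 11.04 against 10.69 and 11.35 on the other *Tnfr1*-/- arrays. Which cells gave its change was not tested. Without *Tnfr1*-/- replicate 2, 4 genes of this list were called higher with the loss of Tnfr1, beside 1.07% of all genes: *Vegfa*, the endothelial growth factor that podocytes supply (0.95, adjusted p = 0.00271), *Tdrd5* (1.31, adjusted p = 0.00173), *Gas1* (1.35, adjusted p = 0.0117) and *Sema3g* (1.0, adjusted p = 0.0168). *Plce1*, *Arhgap24* and *Dach1* of the other lists were called higher under the same condition, at 0.84, 1.32 and 0.95. All of these genes were lowest of the 12 arrays on *Tnfr1*-/- replicate 2, which was singled out after its podocyte values were seen. Leaving it out therefore raises their change with the loss of Tnfr1, and the calls are no second test.

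Genes known for their induction in injured podocytes gave calls in both directions over all 12 arrays. Of 18 such genes, all measured, 4 were called with the loss of Tnfr1, beside 2.52% of all genes, and the median was -0.03. *Ccl2*, the monocyte chemokine, was lower (log2 change -5.60, adjusted p = 2.95e-07), at 6.30 to 7.84 on the 6 arrays without Tnfr1 and 12.04 to 12.78 on the 6 with it. *Il1b* (-0.99, adjusted p = 0.000637) and the integrin gene *Itgb3* (-0.78, adjusted p = 0.0198) were also lower. *Snai2*, a repressor of epithelial genes, was higher by 1.30 (adjusted p = 0.0367), with 9.35 ± 0.75 in *Tnfr1,2*-/- and 9.16 ± 0.69 in *Tnfr1*-/- glomeruli, against 7.89 ± 0.55 in wildtype glomeruli. Without *Tnfr1*-/- replicate 2 the *Snai2* call was lost (1.22, adjusted p = 0.0868) and *Angptl4*, an inhibitor of lipoprotein lipase, was called lower (-1.24, adjusted p = 0.0174), so that the 4 genes then called were all lower. That array was singled out after its podocyte values were seen, so these calls are no second test. *Ccl2* on *Tnfr1*-/- replicate 2 was 7.84, against at least 12.04 on every array with Tnfr1, as on the other arrays without Tnfr1.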

How the data were processed

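The authors hybridised labelled RNA of 3 independent preparations per genotype to Affymetrix Mouse Genome 430 2.0 arrays and normalised the 12 arrays together with the robust multichip average (RMA Express). The deposited log2 values were used unchanged. Array medians were 5.59 to 5.64 and values ran from 1.93 to 14.1. The number of arrays limits the precision. The labels do not say whether preparations came from separate mice, so p-values measure only the spread between these preparations.

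Of 45101 probe sets (64 controls), 34958 carried 1 gene symbol in the platform annotation, 932 several and 9211 none, and only those with 1 symbol were used, for 18194 genes by their lead probe set. Linear models over all 12 arrays (8 residual degrees of freedom) were fitted in R 4.3.3 by limma 3.58.1 without a trend (lmFit and eBayes), with Benjamini-Hochberg adjustment over all genes and a call at adjusted p under 0.05 and at least 1.5-fold. The study's own test, SAM, was rewritten and run as an alternative. Both procedures were tested on simulated data first. Further alternatives were the mean of all probe sets or every probe set, no probe sets of several transcripts, a mean-variance trend, weights per array, a fit to only the 6 arrays compared, median centring, cyclic loess, a filter on dim genes (log2 of at least 6 on at least 3 arrays), no fold threshold, the replicate number or array set as a block, and each array left out in turn.

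The 8 members and all gene lists were chosen with earlier results of these data known. Genes named from the other podocyte lists were those called, or otherwise up to 4 with the smallest p, and genes of the same pattern were the 10 with the highest Pearson r with the mean of the scaled members. *Col4a4*, *Plce1*, *Eng*, *Vegfa*, *Tdrd5*, *Gas1*, *Angptl4* and *Krt19* were named after their values were seen. Promoters were read from RefSeq (GRCm38.p6), where 5 of the 8 members matched.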

Additional observations from a re-analysis of the deposited data

Results flagged for a closer look

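Each of the 8 genes and their mean was examined over the 6 arrays with or without each receptor, 36 groups in all, for a lowest or highest array far from the rest by Dixon's criterion (gap over range above 0.625 for 6 arrays), which chance passes in about 1 of 20 groups. The criterion was met in 7 groups, and in 6 of them the array was *Tnfr1*-/- replicate 2. The groups share arrays, several of the genes varied together and the mean is built from them. The 7 flags are therefore not independent of each other and cannot be set against the rate for chance. They also rest on the same values in which that array was seen to be low, and are no second test of it. Among the arrays without Tnfr1 it read 12.15 for *Podxl* (next lowest 13.42), 8.98 for *Wt1* (next lowest 11.05), 9.84 for *Cd2ap* (next lowest 10.51) and 9.43 for *Ptpro* (next lowest 11.98). The mean of the 8 genes was 10.18 on it, with 11.23 as the next lowest. Among the arrays with Tnfr2, *Ptpro* again stood apart at 9.43, with 11.26 as the next lowest. The other case was *Ptpro* on *Tnfr2*-/- replicate 1, at 10.66 among the arrays without Tnfr2, where the next lowest was 11.70.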

How the results depend on the processing

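Of 40 member changes, 0 of which were called over all arrays, 17 kept their sign under every setting and 23 turned under at least 1. The added setting combined the array set as a block with *Tnfr1*-/- replicate 2 left out and was chosen after seeing the data. Called genes moved past 1.5 times as follows. For *Tnfr1,2*-/- against wildtype (236) there were 1040 with array weights, 367 by SAM, 597 with the replicate block, 388 with the array set as a block and 513 with the added setting. For *Tnfr1*-/- against wildtype (219) there were 97 with only the arrays compared, 356 with array weights, 437 with the replicate block, 470 with the array set and 380 with the added setting. For *Tnfr2*-/- against wildtype (0) there were 3 with array weights, 4 by SAM, 1 with the replicate block, 3 with the array set and 3 with the added setting. For the loss of Tnfr1 (459) there were 715 with array weights, 730 with the replicate block and 721 with the added setting, and for the loss of Tnfr2 (5) 3 with the mean of all probe sets. Called members (0) became 1 for the loss of Tnfr1, *Synpo*, with the trend, array weights, cyclic loess, the dim filter, the replicate block and the array set, and 2, *Synpo* and *Wt1*, with the added setting, and 1 in *Tnfr1,2*-/- against wildtype with array weights, again *Synpo*. The mean of the 8 genes with all probe sets was 9.943 in *Tnfr1,2*-/-, 9.568 in *Tnfr1*-/-, 9.526 in *Tnfr2*-/- and 9.612 in wildtype.

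Signs turned with array weights for *Nphs1* (-0.0185 in *Tnfr1,2*-/-, 0.0406 in *Tnfr1*-/- and -0.0093 in *Tnfr2*-/- against wildtype, and -0.0342 for the loss of Tnfr2), for *Podxl* (0.1067), *Wt1* (0.1887) and *Tcf21* (0.0233) in *Tnfr1*-/- against wildtype, and for *Actn4* (-0.0438 in *Tnfr2*-/- against wildtype and -0.095 for the loss of Tnfr1). *Ptpro* turned to -0.074 for the loss of Tnfr1 with the mean of all probe sets. *Actn4* in *Tnfr1,2*-/- against wildtype turned to 0.1105 with the array set and 0.1276 with the added setting. With the added setting *Tnfr1*-/- against wildtype also turned, to 0.4927 for *Nphs1*, 0.3994 for *Podxl*, 0.6578 for *Wt1*, 0.1583 for *Cd2ap*, 0.4677 for *Ptpro* and 0.4722 for *Tcf21*, as did the loss of Tnfr2, to -0.0507 for *Podxl*, -0.0916 for *Wt1* and -0.0739 for *Ptpro*. The cause was not tested for any of these.

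Leaving out each array in turn gave 130 to 269 called genes for *Tnfr1,2*-/- (fewest without wildtype replicate 2), 118 to 246 for *Tnfr1*-/- (fewest without wildtype replicate 2) and 0 to 2 for *Tnfr2*-/- against wildtype, 2 to 6 for the loss of Tnfr2, and 0 to 1 called members for the loss of Tnfr1, *Wt1* without *Tnfr1*-/- replicate 2 and *Synpo* without *Tnfr1,2*-/- replicate 3 or *Tnfr2*-/- replicate 3. Changes whose sign turned ranged, in *Tnfr1,2*-/- against wildtype, from -0.4987 to 0.1393 for *Actn4*, -0.0922 to 0.4596 for *Nphs1*, in *Tnfr1*-/- against wildtype from -0.3296 to 0.3886 for *Nphs1*, -0.4859 to 0.7227 for *Wt1*, -0.0452 to 0.5247 for *Actn4*, -0.3284 to 0.4326 for *Podxl*, -0.2566 to 0.1979 for *Cd2ap*, -0.8152 to 0.4794 for *Ptpro*, -0.4703 to 0.4323 for *Tcf21*, and in *Tnfr2*-/- against wildtype from -0.2071 to 0.1602 for *Podxl*, -0.3444 to 0.2362 for *Ptpro*, -0.0358 to 0.3347 for *Synpo*, -0.2442 to 0.3681 for *Nphs1*, -0.2558 to 0.3141 for *Actn4*, -0.4192 to 0.0146 for *Wt1*, -0.2475 to 0.0713 for *Cd2ap*. For the loss of Tnfr1 they ranged from -0.1241 to 0.2399 for *Nphs1*, -0.1441 to 0.1749 for *Actn4*, -0.1054 to 0.5419 for *Ptpro*, and for the loss of Tnfr2 from -0.0179 to 0.3412 for *Nphs1*, -0.0341 to 0.3464 for *Podxl*, -0.0592 to 0.5451 for *Wt1*, -0.0681 to 0.5792 for *Ptpro*.

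Replicate numbers recur across genotypes, but nothing in the labels pairs them. Of 18 same-numbered pairs of arrays, 15 had deviations from their group means that correlated above 0.1 (range -0.23 to 0.73), and the 3 others all involved *Tnfr1,2*-/- replicate 2. All replicate 1 arrays lay in set 1 and all replicate 3 arrays in set 2, and 8 of 12 arrays were closest to one of their own number. Most same-numbered pairs thus varied together, but the labels state no pairing. The main model therefore used no block, its lack of called members applies to unpaired arrays, and the block was kept as an alternative. With the replicate block *Synpo* was called for the loss of Tnfr1 (adjusted p = 0.0256). SAM was not run for the effects of each loss over 12 arrays, and the fit to only the arrays compared was run for the comparisons with wildtype alone.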
